A study of Mus musculus with 6 samples.

Results

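The B-lymphoid priming genes are 9 genes of the early B-cell programme that were read out in myeloid progenitors: the transcription factors Ebf1 and Pax5, the surrogate light chain genes Igll1 and Vpreb1, the receptor signalling chains Cd79a and Cd79b, the recombination genes Rag1 and Dntt, and the cytokine receptor Il7r. They were picked by symbol from the 23337 genes of the count table, and all 9 were found. Polyadenylated RNA was sequenced from C57BL6 bone marrow granulocyte-monocyte progenitors carrying ER-HOXA9, a fusion of the estrogen receptor to the homeobox factor HOXA9 that keeps such cells immature and dividing while its ligand is present. All 6 cultures carried the fusion and grew with stem cell factor and 0.5 µM beta-estradiol. The 3 groups of 2 biological replicates were untreated cells at day 0, cultures given DMSO, the drug solvent, for 3 days (vehicle), and cultures given 3 compounds together for 3 days. The compounds were 200 nM GSK-LSD1, which blocks the lysine demethylase LSD1, 5 µM mercaptopurine, a purine analogue, and 5 µM cerulenin, which blocks fatty acid synthase. The drugs were given only in combination, so their separate parts cannot be told apart, and the labels do not say whether the cells are 1 clone. Whether replicates came from separate animals is not given either, so the p-values measure the spread between these cultures.

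Early B-cell development begins in lymphoid progenitors that receive signals through the interleukin-7 receptor. The factors E2A and EBF1 switch on the genes of the pre-B cell receptor, and PAX5 then fixes B-lineage identity. RAG1 and RAG2 cut the immunoglobulin loci for recombination, and terminal transferase, the product of Dntt, adds bases at the joins. The surrogate light chain, made of the Igll1 product (lambda 5) and the VpreB protein, pairs with the first heavy chain, and CD79A and CD79B carry the signal into the cell. Multipotent progenitors can transcribe some of these genes at low levels before they commit to a lineage, which is called lymphoid priming.

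Igll1 and Vpreb1 are neighbours on mouse chromosome 16. On the mm10 build the exons of Igll1 span chr16:16860671-16863985 and those of Vpreb1 chr16:16868401-16869255, both on the minus strand, with 4415 bases between them. The 250 bases before the start of Igll1, Ebf1, Cd79a and Rag1 are shown because these genes changed with the drugs and had a RefSeq window, and those of Vpreb1 because it is the neighbour and partner of Igll1. Ebf1 has a pair of RefSeq starts, both shown. They are RefSeq sequence on GRCm38.p6, the assembly behind mm10, written 5′ to 3′ on the strand of the gene. Capitals mark matches, on either strand, to the core of the EBF1 motif (CCCNNGGG) and to 2 E-box forms bound by E2A proteins (CAGCTG, and CAGGTG, which reads CACCTG on the other strand).
Igll1 (chr16:16863986-16864235, minus strand): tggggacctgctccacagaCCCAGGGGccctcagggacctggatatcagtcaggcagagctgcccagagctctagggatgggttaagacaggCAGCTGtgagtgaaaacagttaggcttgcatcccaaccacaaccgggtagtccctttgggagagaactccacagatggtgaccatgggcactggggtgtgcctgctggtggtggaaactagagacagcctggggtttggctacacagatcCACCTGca
Vpreb1 (chr16:16869256-16869505, minus strand): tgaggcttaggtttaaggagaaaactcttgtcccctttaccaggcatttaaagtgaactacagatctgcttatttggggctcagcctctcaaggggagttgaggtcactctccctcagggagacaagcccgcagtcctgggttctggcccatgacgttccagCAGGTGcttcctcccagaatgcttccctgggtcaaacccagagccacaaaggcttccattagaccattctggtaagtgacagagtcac
Ebf1, first start (chr11:44617850-44618099, plus strand): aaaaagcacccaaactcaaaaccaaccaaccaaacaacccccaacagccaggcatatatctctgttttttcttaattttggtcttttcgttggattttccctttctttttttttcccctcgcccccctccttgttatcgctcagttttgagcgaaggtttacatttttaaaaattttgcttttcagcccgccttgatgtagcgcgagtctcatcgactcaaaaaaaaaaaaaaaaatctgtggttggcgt
Ebf1, second start (chr11:44619978-44620227, plus strand): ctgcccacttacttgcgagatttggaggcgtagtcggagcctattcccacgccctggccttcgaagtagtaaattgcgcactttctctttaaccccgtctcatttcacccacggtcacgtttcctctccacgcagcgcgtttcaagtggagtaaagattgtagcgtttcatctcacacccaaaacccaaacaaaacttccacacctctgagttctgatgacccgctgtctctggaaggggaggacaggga
Cd79a (chr7:24897247-24897496, plus strand): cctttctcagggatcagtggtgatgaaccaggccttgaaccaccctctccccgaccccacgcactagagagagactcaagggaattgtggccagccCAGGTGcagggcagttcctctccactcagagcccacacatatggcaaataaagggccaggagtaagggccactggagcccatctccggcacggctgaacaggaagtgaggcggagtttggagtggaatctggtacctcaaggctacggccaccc
Rag1 (chr2:101649533-101649782, minus strand): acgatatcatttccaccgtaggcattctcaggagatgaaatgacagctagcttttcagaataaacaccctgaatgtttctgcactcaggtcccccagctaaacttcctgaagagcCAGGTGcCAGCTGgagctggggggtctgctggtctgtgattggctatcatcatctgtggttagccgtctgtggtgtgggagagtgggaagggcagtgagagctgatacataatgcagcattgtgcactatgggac
The Igll1 window held 1 match to the EBF1 core (CCCAGGGG, beginning 231 bases before the start), 1 CAGCTG at 158 bases and 1 CACCTG at 8 bases. The Rag1 window held CAGGTG and CAGCTG side by side, beginning 135 and 128 bases before the start. Cd79a and Vpreb1 each held 1 CAGGTG, at 154 and 88 bases. Only exact matches to the letters of the motifs were sought, so a site that departs from them would be missed. Among 32851 RefSeq promoter windows of the same 250 bases, 11.8% held the EBF1 core, 13% CAGCTG and 17.2% CAGGTG in either orientation. No match of any of these motifs lay in the windows of Pax5, Il7r, Dntt or either of the Ebf1 starts. RefSeq windows were matched for 8 of the 9 members, and Cd79b was not matched.

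Levels are given in CPM, which are read counts scaled to the same effective total in every library, and a difference was called when its adjusted p was under 0.05. Total counts per library ranged from 11305666 to 16948697, and the ribosomal precursor Rn45s took 14.62% to 16.12% of them at day 3 but 20.45% and 24.64% at day 0. All 16 genes of a list of neutrophil and monocyte progenitor markers, such as Mpo, Elane, Ctsg and Cd34, were present. Their summed level was 8007 and 8302 CPM in untreated libraries, 8942 and 9227 in vehicle ones and 11600 and 12130 in drug-treated cells. Mpo was the largest part, and without it the sums were 4513 and 4275, 4295 and 4581, and 5082 and 5173 CPM. Of the 9 members, 6 had enough counts to test, with at least 10 counts in every library, and Vpreb1, Pax5 and Il7r did not.

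To compare genes with one another, levels were also divided by exon length in kilobases. Per kilobase, Ebf1 was highest in every library, at 25.9 and 30.5 CPM per kilobase in untreated cells, and Igll1 came next at 20.9 and 21.9. Cd79b followed at 9.02 and 10.6 and Cd79a at 1.63 and 1.98, without overlap between neighbours in this order. In untreated cells the mean level of Ebf1 was higher than that of 78.9% of the 11283 genes tested, that of Igll1 higher than 71.5%, and that of Cd79b higher than 47.2%. Below these, Dntt (0.562 and 0.78 CPM per kilobase) and Vpreb1 (0.541 and 0.701) overlapped, as did Il7r and Pax5 at the bottom of the order. With vehicle the first 4 places were the same and the libraries of Dntt, Rag1 and Vpreb1 overlapped in turn. With the drugs, Cd79b (6.52 and 7.22) and Igll1 (6.17 and 6.53) overlapped, and Rag1 (0.89 and 1.07) lay above Dntt (0.564 and 0.757).

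**Figure D1:**
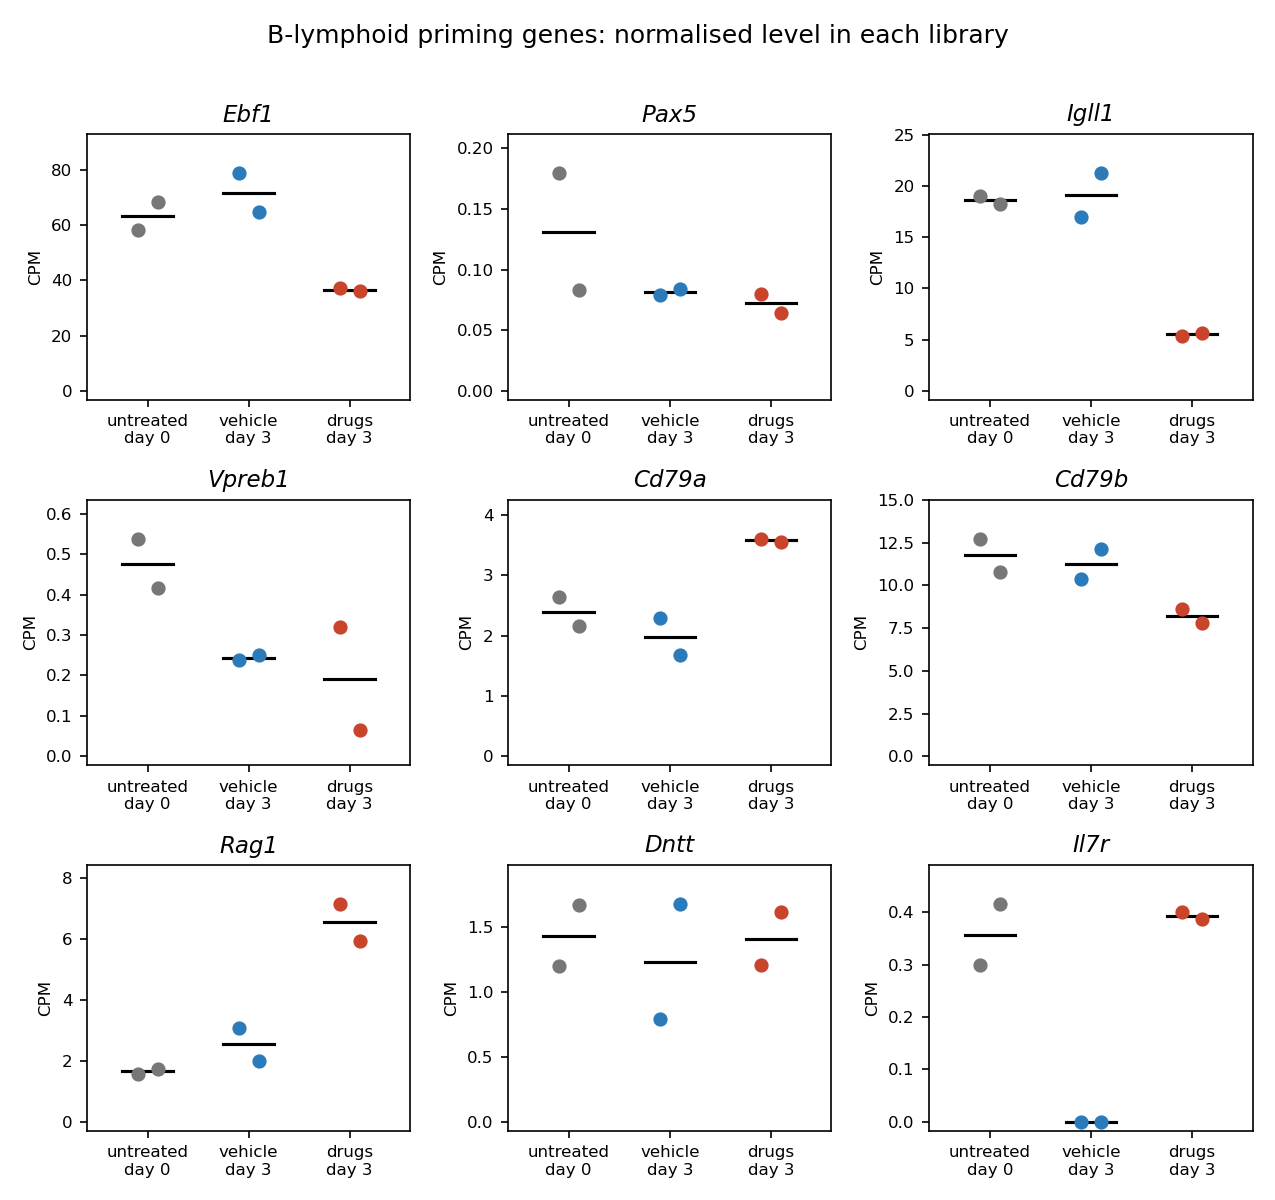
Normalised level in CPM of each of the 9 genes, with 1 panel per gene and its own linear axis from 0. Points are the 2 libraries of each group and bars their means. The drug libraries lie lowest for Ebf1, Igll1 and Cd79b and highest for Rag1 and Cd79a, and both vehicle libraries are at 0 for Il7r.

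The comparison of drugs with vehicle on the same day asked how the combination changed the cells beyond 3 days of culture. Igll1, Ebf1 and Cd79b were lower with the drugs, Rag1 and Cd79a were higher, and Dntt was not called. Igll1 fell 3.44-fold, Ebf1 1.96-fold and Cd79b 1.37-fold, and Rag1 rose 2.53-fold and Cd79a 1.79-fold. The priming genes thus did not move in 1 direction. Of the 6 tested, 2 rose and 3 fell, where 18.1% of all genes tested were called higher, 13.8% lower and 31.9% in either direction. Their median log2 change was -0.11, against 0.001 for all genes tested. The 5 calls became 3 (Igll1, Ebf1 and Rag1) with DESeq2 and without drug replicate 1, vehicle replicate 2 or drug replicate 2.

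Igll1, which encodes the lambda 5 part of the surrogate light chain, had 214 and 254 counts with vehicle and 67 and 88 in drug-treated cells. These are 16.9 and 21.2 CPM against 5.37 and 5.68 CPM. Both drug libraries lay below both vehicle libraries, and the untreated libraries, at 19.0 and 18.2 CPM, lay within the range of vehicle. The log2 change was -1.78 ± 0.15 (SE; 95% interval -2.11 to -1.46; edgeR adjusted p = 1.56e-06). In bulk RNA, fewer cells with a transcript and less transcript per cell cannot be told apart.

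Vpreb1, the gene of the partner chain, was near the limit of detection, with 9 and 5 counts in untreated libraries, 3 and 3 in vehicle ones and 4 and 1 in drug-treated cells. The ratio of drugs to vehicle was 0.733, with a 95% counting interval of 0.177 to 2.88, so a fall of the size seen for Igll1 and no fall at all were both within it. Vpreb2, a near copy of Vpreb1, had at most 2 counts in any library, and 18.8% of the 50-base stretches of Vpreb1 transcripts also occur in other genes, chiefly Vpreb2. How reads with several matches were counted is not given, so the level of Vpreb1 is uncertain. Vpreb3, a pre-B cell receptor assembly protein, had 3 to 12 counts and was not called (log2 change -0.87 ± 0.505, adjusted p = 0.214).

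Ebf1, which encodes the factor that opens the early B-cell programme, had 998 and 775 counts with vehicle and 464 and 562 in drug-treated cells. Scaled, it stood at 78.9 and 64.8 CPM with vehicle and 37.2 and 36.3 CPM with the drugs, below the untreated libraries at 58.2 and 68.5 CPM as well. The log2 change against vehicle was -0.97 ± 0.106 (95% interval -1.20 to -0.74; adjusted p = 1.64e-05). The Ebf1 exons lie on chromosome 11 between 44618134 and 45005172. Pax5, the B-lineage commitment factor, had 1 to 3 counts in every library. Its ratio of drugs to vehicle was 0.88 (counting interval 0.0638 to 12.1), so no difference was detectable at this depth.

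The 2 signalling chains moved in opposite directions. Cd79a had 29 and 20 counts with vehicle and 45 and 55 in drug-treated cells, or 2.29 and 1.67 CPM against 3.60 and 3.55 CPM, without overlap. Its log2 change was 0.84 ± 0.25 (95% interval 0.30 to 1.38; adjusted p = 0.0212). Cd79b had 131 and 145 counts with vehicle and 108 and 121 in drug-treated cells, or 10.4 and 12.1 CPM against 8.65 and 7.81 CPM, again without overlap. Its log2 change was -0.45 ± 0.151 (95% interval -0.78 to -0.13; adjusted p = 0.0365). Per kilobase, Cd79b exceeded Cd79a 5.36- and 5.54-fold in the untreated libraries, 5- and 8.03-fold with vehicle and 2.66- and 2.44-fold in drug-treated cells. Both calls were lost with DESeq2 (adjusted p = 0.179 for Cd79a and 0.165 for Cd79b) and without drug replicate 1 (0.0989 and 0.0904), vehicle replicate 2 (0.163 and 0.187) or drug replicate 2 (0.0991 and 0.227). The Cd79b call was also lost with scaling by library totals (0.0672). Of the 50-base stretches of Cd79a transcripts, 8.31% also occur in other genes, chiefly Gm32220, and the part of such reads in its count was not tested.

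Rag1, the catalytic subunit of the recombinase, had 39 and 24 counts with vehicle and 89 and 92 in drug-treated cells. Its levels were 3.08 and 2.01 CPM against 7.13 and 5.94 CPM, so both drug libraries lay above both vehicle libraries and above the untreated libraries, at 1.56 and 1.75 CPM. The log2 change was 1.34 ± 0.229 (95% interval 0.85 to 1.84; adjusted p = 0.000697). Rag2, its partner 5723 bases away on chromosome 2, behaved differently. It had 684 to 982 counts, with 62.5 ± 2.25 CPM (SD, n = 2) with vehicle and 59.0 ± 0.737 CPM with the drugs, and was not called (log2 change -0.08 ± 0.0723, adjusted p = 0.407). Per kilobase, Rag2 stood 38.9- and 62.8-fold above Rag1 with vehicle and 16.4- and 19.4-fold above it with the drugs.

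B230118H07Rik, which is annotated on the same strand as Rag1 and overlaps the span of Rag2, had 20 to 25 counts in untreated libraries, close to the 21 to 26 of Rag1, 7 and 10 with vehicle and 11 to 12 in drug-treated cells, against 89 and 92 for Rag1. Of the 50-base stretches of Rag1 transcripts, 0.503% also occur in other genes, chiefly B230118H07Rik, and the part of such reads in its count was not tested. No exon of any member overlaps an exon of another gene in the table. Dntt, whose product adds untemplated bases during recombination, had 10 and 20 counts with vehicle and 15 and 25 in drug-treated cells, and the 2 ranges overlapped. Its log2 change was 0.22 ± 0.395 (95% interval -0.63 to 1.08; adjusted p = 0.707).

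Il7r, the ligand-binding chain of the interleukin-7 receptor, had 0 counts in both vehicle libraries, 5 and 6 with the drugs and 5 and 5 in untreated cells. With the vehicle group set to a floor of 3 counts, it was 3.23-fold higher with the drugs and 2.85-fold higher in untreated cells. The counting error of the drug and untreated reads is not in these folds. It had too few counts for the test as reported. In an edgeR fit without the filter on low counts its adjusted p was 0.0224 for drugs against vehicle and 0.0669 for vehicle against day 0. For drugs against vehicle that fit put Igll1 at an adjusted p of 2.34e-32, against 1.56e-06 in the reported fit. The Il7r values from it thus cannot be set beside the reported calls. The Il7r counts are a handful of reads, and neither intervals nor floors cover the spread between cultures.

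**Figure D2:**
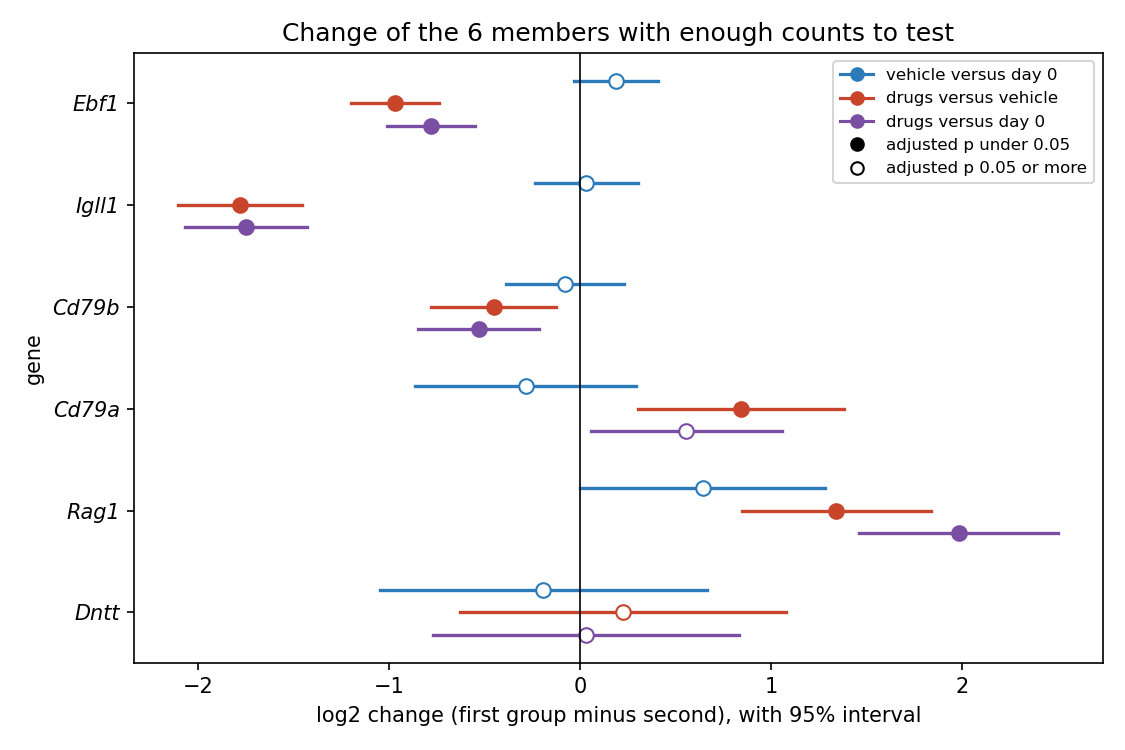
Log2 change of the 6 testable genes in the 3 comparisons, with 95% intervals. Filled points have an adjusted p under 0.05. Intervals for Ebf1, Igll1 and Cd79b with the drugs lie below 0 against both vehicle and day 0, those for Rag1 lie above 0, and all points for vehicle against day 0 are open.

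The comparison of vehicle with day 0 asked what 3 days of culture did without drugs. None of the 6 tested members was called by edgeR, where 7.74% of all genes tested were called, 3.75% higher and 3.99% lower. At an unadjusted p under 0.05 there was 1, and DESeq2 called 0. That 1 was Rag1, whose vehicle libraries (3.08 and 2.01 CPM) both lay above the untreated ones (1.56 and 1.75 CPM), with a log2 change of 0.64 ± 0.295 (edgeR adjusted p = 0.198). For Igll1 the log2 change was 0.03, with a 95% interval of -0.24 to 0.30, so a change of the size seen with the drugs lies outside it. For Ebf1 it was 0.19 (-0.03 to 0.41), for Cd79a -0.29 (-0.87 to 0.29), for Cd79b -0.08 (-0.39 to 0.23) and for Dntt -0.19 (-1.05 to 0.66). With scaling by library totals, which moved the median of all genes to 0.104, Ebf1 was called higher with vehicle (log2 change 0.31, adjusted p = 0.0431). Among the sparse members, Vpreb1 had a ratio of untreated to vehicle of 2.00 (counting interval 0.721 to 6.34).

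Drug-treated cells were also compared with the day 0 cells, a comparison that shares its drug libraries with the first and its untreated libraries with the second. Of the 6 tested members, 1 rose and 3 fell, where 22.7% of all genes tested were called higher, 21.2% lower and 43.9% in either direction. Igll1 fell by 1.75 ± 0.148 on the log2 scale (adjusted p = 1.23e-06), Ebf1 fell by 0.78 ± 0.106 (8.25e-05) and Cd79b fell by 0.53 ± 0.147 (0.0107). Rag1 rose by 1.98 ± 0.242 (adjusted p = 3.46e-05), a 3.95-fold difference. Cd79a was not called against day 0 (0.56 ± 0.232, adjusted p = 0.068), although its drug libraries lay above both untreated ones, and Dntt was at 0.03 ± 0.37. The Cd79b call was lost with DESeq2 (adjusted p = 0.0714), with library totals (0.0691), without untreated replicate 1 (0.0908) and without drug replicate 2 (0.102). Vpreb1, at 14 counts over the untreated group and 5 over the drug group, had a ratio of 0.367 (counting interval 0.103 to 1.08).

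**Figure D3:**
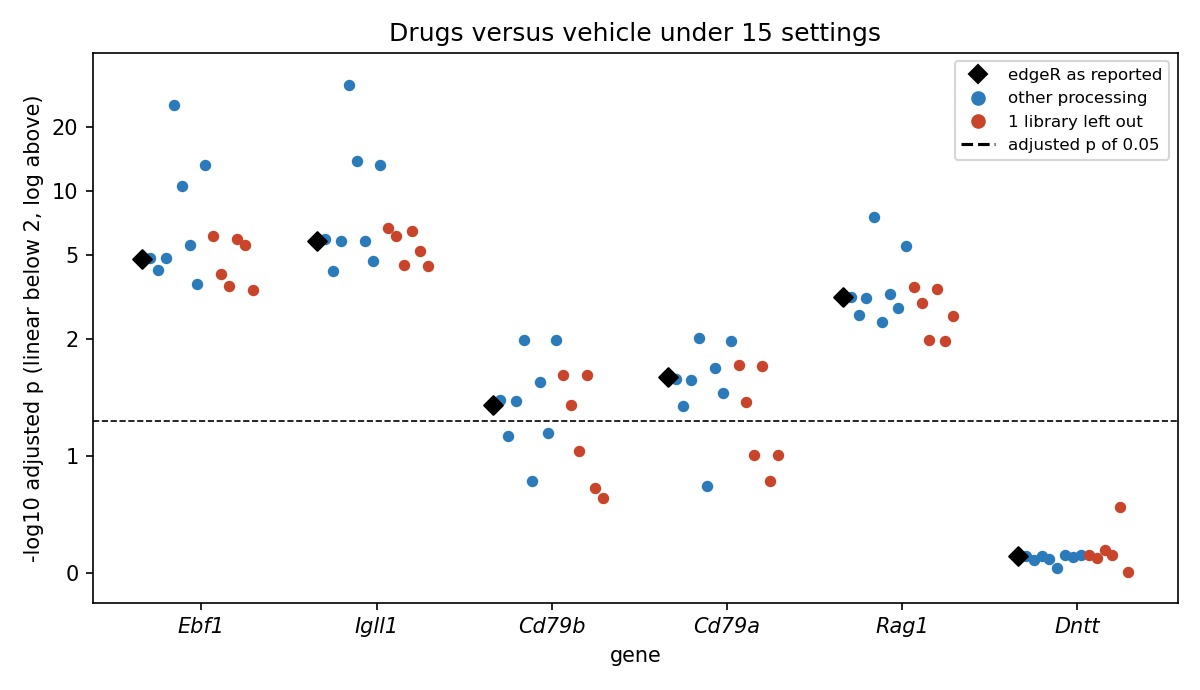
Adjusted p of drugs against vehicle for the 6 testable genes, as -log10 on an axis that is linear below 2 and logarithmic above, under the reported edgeR fit (diamonds) and 14 alternatives. The dashed line marks 0.05. Ebf1, Igll1 and Rag1 stay above the line in all 15, Cd79b and Cd79a fall on both sides, and Dntt stays below it.

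Other genes of the B-lineage pathways put these changes in context. Of 29 other transcription factor genes that act in early B-cell development, 22 had enough counts, and with the drugs 13 rose and 0 fell against vehicle (59.1% called, against 31.9% of all genes tested; median log2 change 0.38, against 0.001). Ebf1, which fell, and Pax5 are members and are not in this list. Over all genes tested, 18.1% rose and 13.8% fell. The 13 were Tcf4, Ikzf2, Ikzf3, Foxo1, Foxo3, Sox4, Irf8, Bach2, Mef2c, Runx1, Erg, Zeb2 and Spi1 (listed in the table as Sfpi1), several of which also act in myeloid cells. Of these, Sox4 and Mef2c are counted again among the early lymphoid progenitor genes below. Tcf4 is also in the plasmacytoid dendritic cell list and Spi1 in the neutrophil and monocyte progenitor list, so the lists share genes. Bach2, a repressor that guards B-cell identity, had 1 and 2 counts with vehicle and 38 and 55 in drug-treated cells, a ratio of 27.3 (95% counting interval 9.05 to 134.6). It passed the filter on low counts through its drug libraries alone, so its call is no support, although it is counted among the 13. Irf8, a factor of B-cell, monocyte and dendritic cell fates, rose by 2.28 ± 0.141 (adjusted p = 7.75e-08). Foxo1, an activator of the Rag genes and of Il7r, stood at 7.66 ± 1.13 CPM with vehicle and 14.9 ± 1.25 in drug-treated cells (edgeR log2 change 0.95 ± 0.152, adjusted p = 0.000409).

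The genes of E2A and Ikaros, which act beside EBF1, were not called against vehicle. Tcf3, which encodes E2A, stood at 81.0 ± 0.626 CPM with vehicle and 71.5 ± 3.02 with the drugs (log2 change -0.18 ± 0.0695, adjusted p = 0.0678), and Ikzf1, which encodes Ikaros, at 343.4 ± 13.2 and 318.2 ± 14.9 (-0.11 ± 0.0811, adjusted p = 0.327). Against day 0 both were called lower (-0.25, adjusted p = 0.0106, and -0.30, adjusted p = 0.00982). Those calls were lost without drug replicate 1 (0.151 for Tcf3 and 0.0526 for Ikzf1), the Ikzf1 call also without drug replicate 2 (0.122), and the Tcf3 call also with DESeq2 (0.0567) or library totals (0.0834). Lef1, Pou2af1 and Zfp521 had 0 counts in all 6 libraries.

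Of 30 genes of pre-B cell and B cell receptor signalling, 23 were tested, and 5 rose and 8 fell with the drugs against vehicle. That is 56.5% called, against 31.9% of all genes tested (18.1% higher and 13.8% lower), with a median of -0.06. Plcg2, the phospholipase downstream of the receptor, fell from 400.2 ± 21.6 CPM with vehicle to 258.7 ± 2.46 in drug-treated cells (log2 change -0.63 ± 0.0793, adjusted p = 5.76e-05). Bank1, a B-cell scaffold protein, had 20 and 13 counts with vehicle and 6 and 7 in drug-treated cells, and passed the filter only through the libraries without drugs. Cd22, an inhibitory sialic acid receptor of B cells, had 0 counts in all 4 libraries without drugs and 45 and 59 with them. With the vehicle group set to the floor of 3 counts, it was 30.5-fold higher with the drugs. Cd22 too passed the filter through its drug libraries alone. Blk and Cd38 had 0 counts in all 6. The count of 13 called genes fell to 8 with DESeq2, 7 without drug replicate 1 and 6 without drug replicate 2.

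Of 13 other genes of recombination and end joining, all were tested, and 1 rose and 3 fell (median -0.08). These are 30.8% of the list, near the 31.9% over all genes tested, and the total of 4 became 2 without drug replicate 1 or drug replicate 2. Atm, the kinase that senses double-strand breaks, rose by 0.46 ± 0.0729 (adjusted p = 0.000402). Xrcc6 and Xrcc5, which encode Ku70 and Ku80, changed by -0.34 ± 0.0744 and -0.74 ± 0.188 (adjusted p = 0.00394 and 0.00982). The Xrcc6 call was lost without drug replicate 1 (0.0505), and the Xrcc5 call with DESeq2 (0.0878) and without drug replicate 2 (0.106). The third fall was Hmgb1, a DNA-bending cofactor of the RAG recombinase.

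Of 18 genes of interleukin-7 receptor signalling, 16 were tested, and 6 rose and 2 fell against vehicle. That is 50% called, against 31.9% of all genes tested (18.1% higher and 13.8% lower), with a median of 0.17. Il2rg, the shared receptor chain that pairs with the Il7r product, was at 39.0 ± 1.66 CPM with vehicle and 46.4 ± 0.268 with the drugs (log2 change 0.25 ± 0.079, adjusted p = 0.0269), far above the few Il7r counts. That call was lost with library totals (0.0754), DESeq2 (0.18), and without vehicle replicate 1 (0.148), vehicle replicate 2 (0.0512), drug replicate 1 (0.147) or drug replicate 2 (0.166). Ccnd2, the cyclin D2 gene, fell by 0.91 ± 0.0922 (edgeR adjusted p = 8.52e-06), while Pim1, a kinase induced by STAT5, rose by 1.10 ± 0.113 (9.72e-06). The other fall was Socs2, a feedback inhibitor of cytokine signalling, with 39 and 44 counts with vehicle and 18 and 11 in drug-treated cells. Socs2 passed the filter only through the libraries without drugs, so its call is no support.

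Of 18 genes of early lymphoid progenitors, 14 were tested, and 7 rose and 2 fell against vehicle. That is 64.3% called, against 31.9% of all genes tested (18.1% higher and 13.8% lower), with a median of 0.46. Satb1, which folds chromatin into loops, rose by 1.76 ± 0.0892 on the log2 scale (edgeR adjusted p = 1.3e-08). Flt3, a receptor kinase of lymphoid-primed progenitors, stood at 211 ± 0.245 CPM at day 0, 283 ± 0.534 with vehicle and 526.8 ± 12.6 in drug-treated cells, and was called in every comparison (adjusted p = 0.00334 for vehicle against day 0, 8.17e-07 for drugs against vehicle and 1.88e-08 for drugs against day 0). Ly6d and Ccr9, markers of later lymphoid progenitors, had 0 counts in all 6 libraries. The 2 falls were Cd27, a costimulatory receptor, and Adgrl4 (listed as Eltd1), an adhesion receptor.

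Against day 0, the calls in vehicle cultures, where 7.74% of all genes tested were called, were Runx1 and Ikzf3 higher among 22 transcription factors, 2 higher and 1 lower among 23 receptor signalling genes, 0 among 13 recombination genes, 1 lower among 16 interleukin-7 genes, and 4 higher and 1 lower among 14 early lymphoid genes (35.7%). Ikzf3, which encodes Aiolos, had 4 and 6 counts at day 0, 17 and 19 with vehicle and 32 and 51 in drug-treated cells, and passed the filter through the day 3 libraries alone. The counts moved with single libraries and with the settings. Library totals gave 5 transcription factors and 2 recombination genes, no filter gave 4 interleukin-7 genes and 1 recombination gene, and DESeq2 gave 1 transcription factor, 1 receptor signalling gene, 0 interleukin-7 genes and 2 early lymphoid genes. Without vehicle replicate 1 they were 0 for the transcription factors, 0 for receptor signalling and 0 for interleukin-7 signalling. Without untreated replicate 1 they were 0, 1 and 0, with 3 early lymphoid genes. Leaving out vehicle replicate 2, drug replicate 1 or drug replicate 2 left 1 receptor signalling gene and 3, 2 and 2 early lymphoid genes, and both drug libraries took the interleukin-7 count to 0. The recombination count rose to 4 without untreated replicate 2 and to 1 without vehicle replicate 2.

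**Figure D4:**
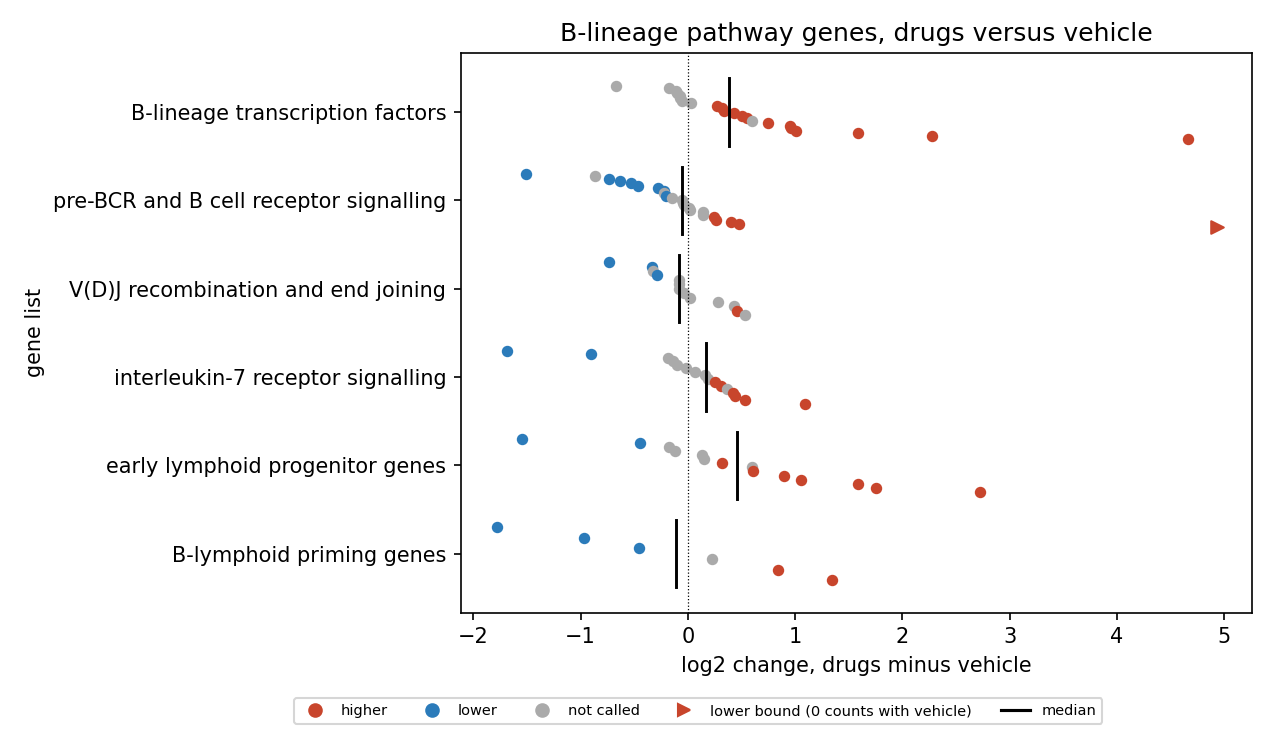
Log2 change of each tested gene, drugs minus vehicle, in the 5 pathway lists and among the 6 testable priming genes. Red and blue points were called higher and lower, grey points were not called, black bars are medians, and the triangle is the lower bound for Cd22. Called genes of the transcription factor list are all on the right, whereas the receptor signalling list and the priming genes have calls on both sides. Ebf1, also a transcription factor, is plotted with the priming genes, on the left.

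Markers of other cell types were read beside these results, and their part in them was not tested. Of 11 mature B and plasma cell markers found, 7 had at most 10 counts in every library and Fcer2a and Faim3 had 0, while Ms4a1, which encodes CD20, had at most 1. The summed level of the list was 57.7 and 63.4 CPM in untreated libraries, 62.1 and 63 in vehicle ones and 74.8 and 76.4 in drug-treated cells, mostly Xbp1, and without Xbp1 it was 7.60 and 8.31, 7.02 and 7.75, and 12.6 and 13.1. Cd22, which is in this list and had 0 counts without drugs, made up 3.60 and 3.81 CPM of the sums in drug-treated cells. The immunoglobulin constant genes Ighm, Ighd, Igkc and Iglc2 were not matched to the count table by symbol, so their levels are not known here. Of 16 T cell markers, 7 had 0 counts throughout, among them Cd3e, Cd3d, Cd3g and Cd4, and the sum was 27.4 and 29.6 CPM in untreated libraries, 31.8 and 32.1 in vehicle ones and 19.0 and 19.2 in drug-treated cells, mostly Thy1. Of 14 plasmacytoid dendritic cell markers, 4 had 0 counts throughout and Siglech had at most 1, with sums of 232.3 and 242.8, 203.8 and 217, and 234.2 and 237.7 CPM, mostly Runx2. Of 10 NK cell markers, 4 had 0 counts throughout and 9 had at most 10, with sums of 3.17 and 3.24, 2.85 and 3.43, and 10.4 and 11.9 CPM, mostly Nkg7, a granule membrane gene. Of 11 erythroid and megakaryocyte markers, 2 had 0 counts throughout, and the sums were 34.2 and 46.3, 17.2 and 22.4, and 14.97 and 18.74 CPM, mostly Itga2b.

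For each tested member, the genes whose profile over the 6 libraries was nearest were found by the root mean square difference of log2 CPM after centring each gene on its own mean. This describes the profile only and carries no test. For Igll1 the nearest of 8403 genes averaging at least 10 CPM were Slc28a2, a purine nucleoside transporter, and Gpr12, an orphan receptor, with differences of 0.119 and 0.141 on the log2 scale. Slc28a2 stood at 48.2 CPM at day 0, 48.5 with vehicle and 13.2 in drug-treated cells. For Ebf1 the nearest was Aebp1 (0.0299), and for Cd79b they were Bysl, a ribosome biogenesis factor, and Metrn (0.0355 and 0.0369). For Rag1 they were Tbc1d4, a regulator of vesicle traffic, and Diap2 (0.134 and 0.146), and Tbc1d4 went from 15.8 CPM at day 0 to 22.8 with vehicle and 64.9 in drug-treated cells. For Cd79a they were Bcl2l11, which encodes the cell death protein BIM, and Naglu, a lysosomal enzyme (0.0725 and 0.0993). For Dntt no gene came nearer than 0.234.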

How the data were processed

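The 6 poly(A) RNA libraries, 2 per group, were analysed from a table of raw read counts per gene that the authors deposited. Its Length column, in base pairs and also deposited by the authors (another unit), was used to express levels per kilobase. The submitters' processing notes name STAR 2.7.0f, deepTools 3.0.2 and mm10. No source used here says whether counting used strand, how multi-mapping reads were treated or which annotation was taken. Of 23337 genes, 11283 passed filterByExpr. Libraries were scaled with TMM and the 3 groups fitted together with edgeR 4.0.16 under R 4.3.3 (quasi-likelihood F test, Benjamini-Hochberg adjustment over all tested genes, threshold 0.05, 3 residual degrees of freedom). SEs come from the F statistic. Groups with 0 counts got a bound from a floor of 3 counts, with the counts of the other group taken as observed. Groups with few counts got a ratio with an exact 95% binomial interval. Replicates differed by more than counting error in every group (chi-square per degree of freedom 1.85 to 14.1). That value was taken on raw counts and library totals, before TMM scaling and with Rn45s included, so it is not the spread used in the tests. The test was also run on simulated data drawn with the same spread for every gene and group. That run cannot show how the test behaves where the spread differs between genes or groups. The members and gene lists were chosen with earlier results of these data known. Of 179 list genes 173 were found, 3 by an older symbol. All members were named, and from each pathway list up to 4 called genes per comparison (the 2 smallest p and the 2 largest changes), with 12 key genes. Not all of these are printed for the comparisons with day 0, and genes given only by name, at 0 counts or as cell type markers were chosen after their values were seen. Alternatives were DESeq2 1.42.0, other scaling, filter, samples, a replicate block and leaving out each library. A few genes that this rule named are not reported here.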

Additional observations from a re-analysis of the deposited data

How the results depend on the processing

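Across the other settings, leaving aside the crossed pairing given later, the 6 tested members gave 206 log2 changes with the reported direction and side of the threshold, 14 with the direction only, 1 newly past the threshold and 13 with the opposite sign. Calls of Igll1, Ebf1 and Rag1 with the drugs, against vehicle and against day 0, held in all 14 alternatives, a count that includes the crossed pairing. The number of members called between drugs and vehicle was 3 with DESeq2, against 5 as reported, and ranged from 3 to 5 when single libraries were left out. Scaling by library totals gave 1 member called between vehicle and day 0 (Ebf1) and put Cd79b at 0.042. The opposite signs were all in differences that were not called. With single libraries left out, Igll1 ranged from -0.127 to 0.189, Cd79b from -0.189 to 0.055 and Dntt from -0.802 to 0.259 between vehicle and day 0. Dntt ranged from -0.23 to 0.83 between drugs and vehicle and from -0.223 to 0.245 between drugs and day 0, where it was also at -0.005 with DESeq2. Where 1 library was left out, the lone sample of its group was assumed to vary like the other groups. The cause of these shifts was not tested.

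The labels do not say what a replicate number marks, and same-numbered libraries showed little or no shared deviation (correlation across genes 0.0807 for drugs and vehicle, -0.199 for vehicle and day 0, -0.0604 for drugs and day 0), so the numbers were not taken as pairs. With the replicate number as a block, 4, 0 and 4 members were called in the 3 comparisons, Dntt was at -0.04 against day 0, and the drug against vehicle calls of Cd79b (edgeR adjusted p = 0.0633) and Il2rg (0.0516) were lost. A crossed pairing of the untreated libraries, chosen after seeing the data, gave 5, 0 and 4.

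Over all genes, 2041 were higher and 1560 lower in drugs against vehicle as reported, and 1319 and 1010 with DESeq2. Between vehicle and day 0 the reported fit called 423 higher and 450 lower, library totals 1741 and 216, no filter 821 and 843, DESeq2 246 and 223, only the 2 groups 269 and 258, and the block 222 and 261. Drugs against day 0 gave 2564 and 2394 as reported and 3141 and 1321 with library totals. The 12 nearest-profile genes were the same with a prior count of 2. Depth left Vpreb1, Pax5 and Il7r without the reported test.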

Other observations

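The lists of markers of other cell types held genes that changed with the drugs, named here after their values were seen and tested only as in the reported edgeR fit. Of 16 neutrophil and monocyte progenitor markers, 10 rose and 2 fell against vehicle (75% called, against 31.9% of all genes tested; median log2 change 0.33). Of 4 tested T cell markers, 1 rose and 2 fell, a list too small to set against that share. Thy1, a surface glycoprotein of T cells and progenitors, went from 22.5 ± 0.548 to 12.2 ± 0.368 CPM (SD, n = 2; log2 change -0.88 ± 0.109, edgeR adjusted p = 4.81e-05). Tcf7, the gene of the T-lineage factor TCF1, went from 6.85 ± 0.705 to 3.52 ± 0.222 CPM (-0.96 ± 0.2, edgeR adjusted p = 0.00293). Cd28, a T-cell costimulatory receptor, was higher with the drugs than with vehicle (1.21 ± 0.321, edgeR adjusted p = 0.0118) but stood near its day 0 level (2.40 ± 0.568 against 2.13 ± 0.0473 CPM).

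Nkg7, the only testable gene of the NK cell list, had 32 and 37 counts with vehicle and 138 and 149 in drug-treated cells (log2 change 1.87 ± 0.191, edgeR adjusted p = 8.68e-06). Of 6 tested plasmacytoid dendritic cell markers, 3 rose (Pacsin1 among them) and 2 fell, where 31.9% of all genes tested were called. Pacsin1, an endocytosis adaptor, had 4 and 7 counts with vehicle and 34 and 40 in drug-treated cells, and passed the filter on low counts through its drug libraries alone. Atp1b1, a subunit of the sodium pump, had 46 and 60 counts with vehicle and 8 and 13 in drug-treated cells. It passed the filter only through the libraries without drugs, so its call is no support. Of 3 tested erythroid and megakaryocyte markers 1 was lower with the drugs (Gp9), and of 4 tested mature B and plasma cell markers 1 was higher (Cd22), and both genes passed the filter only through the groups where they were high.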
